A study of Mus musculus with 16 samples.

Results

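Spinal cord progenitors were examined in mouse chimeras at 3 ages of post-implantation development. The cells were those that carried a transferred atlas label containing the words "spinal cord progenitors", passed the quality filter and were not called doublets. There were 1872 of them among 37841 cells (4.95%), of which 494 held the label Spinal cord progenitors (the spinal label) and 1378 the label Dorsal spinal cord progenitors (the dorsal label), and the labels were kept apart throughout. Each chimera was made by injecting *Stat3* null embryonic stem cells, on a CD1 background and marked by H2B-tdTomato, into a wild type CD1 blastocyst. The dissociated embryos were sorted into a tdTomato-positive fraction, called *Stat3* null here, and a tdTomato-negative fraction, called WT, which is the host. There were 2 libraries per genotype at E7.5, 2 at E8.5 and 4 at E9.5, and no agent was given to either genotype. The stem cells were picked as colonies, and how many lines were injected is not given in the sources used here, so loss of *Stat3* and descent from the injected line cannot be told apart. The labels give pools of about 10 embryos at E7.5, about 4 at E8.5 and 1 at E9.5. The methods describe 2 embryos at E9.5, which is fewer than the libraries per genotype. The p-values take libraries as independent, and they may measure technical spread where libraries came from the same embryos. Within a stage and genotype the libraries are called A, B, C and D, which are names only.

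Neural progenitors of the spinal cord line the neural tube, divide there and later give rise to neurons. Their position along the trunk is recorded by the Hox genes, of which higher-numbered members are used further caudally, and the youngest cells at the tail end pass through a neuromesodermal stage that carries *Cdx* and *Nkx1-2* transcripts. Their dorsoventral position is recorded by transcription factors such as *Pax3* and *Pax7* dorsally and *Nkx6-1* and *Olig2* ventrally. *Stat3* encodes a transcription factor that is activated by cytokine and growth factor receptors and drives, among others, its own feedback inhibitor *Socs3*.

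At E7.5 neither label was found among 5038 cells, a count that leaves room for a share of up to 0.0595%. That is an approximate upper 95% limit, which covers counting error only and no spread between embryo pools. At E8.5 there were 190 WT and 131 null cells with the spinal label and 237 WT and 174 null cells with the dorsal label. At E9.5 the spinal label held 99 WT and 74 null cells and the dorsal label 557 WT and 410 null cells. Expression was compared between libraries with more than 15 cells of a label. This left out E9.5 WT C (8 cells) and E9.5 null C (9 cells) for the spinal label, so that its E9.5 comparison rested on libraries A, B and D of each genotype. The summed unique molecular identifiers (UMIs) behind a value ran from 572070 to 3151751 per library for the spinal label and from 1040319 to 6912935 for the dorsal label. No barcode among these cells was shared between libraries.

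The null library E8.5 null B stood apart. A tdTomato UMI was found in 48.3% of its spinal-label and 67.6% of its dorsal-label cells, against 86.9% to 100% in the other null libraries. Counts of called genes at E8.5 are therefore given with and without it. Transcripts of 8 erythroid markers also differed between the genotypes at E9.5. Their summed level in spinal-label cells was 10.7 to 82.5 counts scaled to a sum of 1e6 UMIs per library and label (CPM) over the null libraries against 260.5 to 1110 CPM over the WT libraries, and in dorsal-label cells 9.29 to 67.7 CPM against 266.9 to 991.3 CPM. All 8 were detected. The 5 globin genes among them were left out of the fits with all haemoglobin genes, the other 3 were below the count filter, and the part of these transcripts in the results was not tested. Endothelial markers summed to at most 4.9 CPM in any library.

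The labels were first set against *Sox2*, *Pax6* and *Pax3*. After each cell was thinned to 10000 UMIs, *Sox2*, which maintains neural progenitors, was found in 93.8% of spinal-label cells at E8.5 and 90.8% at E9.5, and in 90.3% and 96.7% of dorsal-label cells. In cardiomyocytes of the same libraries, which should lack it, the shares were 5.8% and 14.2%. *Pax6*, a factor of neural progenitors along much of the dorsoventral axis, was found in 62.6% and 64.2% of spinal-label cells, 83.0% and 74.1% of dorsal-label cells, and 10.1% and 9.6% of cardiomyocytes. Both genes thus stood well above their background in both labels. *Pax3* was found in 34.0% and 30.1% of spinal-label cells, while in dorsal-label cells it went from 29.0% at E8.5 to 63.3% at E9.5, with 0.361% and 7.69% of cardiomyocytes as background. At least 2 of the 3 markers were seen in 73.8% and 69.4% of spinal-label and 83.2% and 88.9% of dorsal-label cells, against 2.89% and 5.38% of cardiomyocytes. Median depths before thinning were 24930 and 37517 UMIs in spinal-label cells, 23983 and 30974 UMIs in dorsal-label cells, and 21721 and 29478.5 UMIs in cardiomyocytes.

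**Figure D1:**
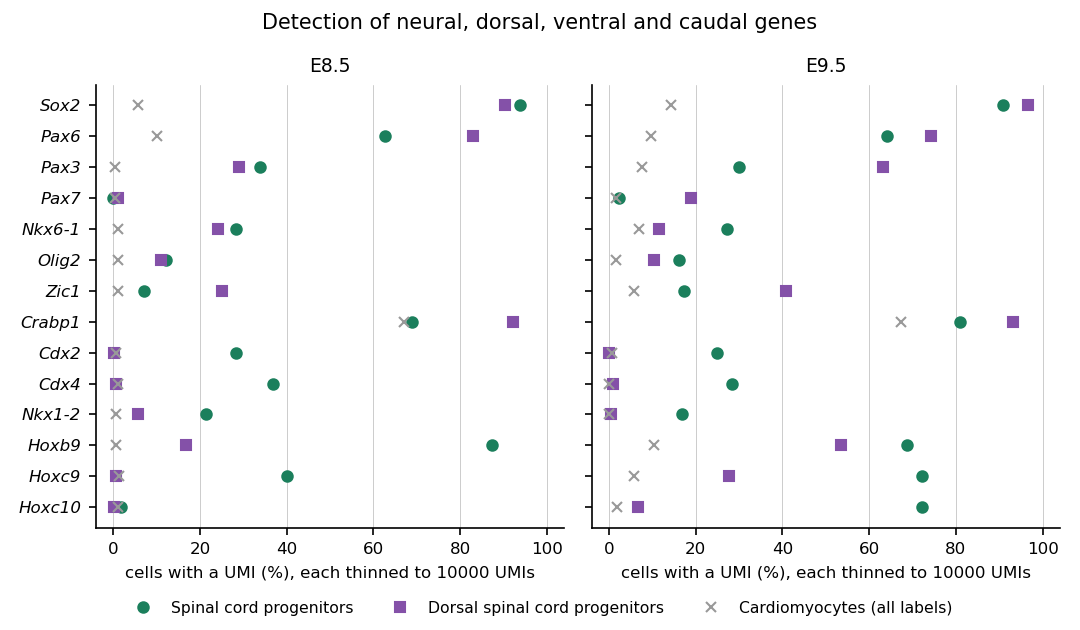
Percent of cells (horizontal axis) with at least 1 UMI of each gene (vertical axis) after thinning to 10000 UMIs per cell, at E8.5 and E9.5, for spinal-label cells (green circles), dorsal-label cells (purple squares) and cardiomyocytes (grey crosses), with the libraries of a stage pooled. *Sox2* sits at 90.3% or higher in both labels, whereas *Cdx2* and *Cdx4* are at most 0.931% in dorsal-label cells and 24.9% to 36.8% in spinal-label cells.

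The data went only partly with the word "dorsal", and more so at E9.5 than at E8.5. *Pax7* was found in 19% of dorsal-label and 2.3% of spinal-label cells at E9.5, against 1.54% of cardiomyocytes. *Msx1*, *Msx3* and *Zic1* were found in 38.1%, 38.8% and 40.8% of dorsal-label and 22.5%, 15.03% and 17.3% of spinal-label cells at E9.5. Cardiomyocytes held these genes in 15.8%, 4.23% and 5.77% at that stage. The ventral progenitor gene *Nkx6-1* was found in 24.1% of dorsal-label cells at E8.5 and 11.5% at E9.5, against 1.08% and 6.92% of cardiomyocytes. In spinal-label cells its shares were 28.3% and 27.2%. *Olig2* was found in 10.9% and 10.4% of dorsal-label and 12.1% and 16.2% of spinal-label cells, against 1.08% and 1.54% of cardiomyocytes. At E9.5, 2 of 20 dorsal-domain genes with enough UMIs, *Pax7* among them, were higher in every dorsal-label library than in any spinal-label library, and 0 the other way. Of 14 intermediate and ventral genes, *Dbx1* was higher in every dorsal-label and *Nkx2-9* in every spinal-label library. Over all genes 2.31% were higher in every dorsal-label and 2.48% in every spinal-label library. The summed level of the intermediate and ventral list at E9.5 was 415 ± 24.2 CPM (SD, n = 8 libraries) in dorsal-label and 368 ± 24.8 CPM (n = 6) in spinal-label cells. The dorsal-domain list summed to 604 ± 135 CPM in dorsal-label and 358 ± 95.3 CPM in spinal-label cells at E9.5. At E8.5 it summed to 335 ± 34.6 and 370 ± 15.6 CPM. At E8.5, 15 dorsal-domain genes had enough UMIs. Of these, *Msx1*, *Msx2* and *Pax3* were higher in every spinal-label library than in any dorsal-label library, beside 4.39% of all genes. *Msx3*, *Wnt1* and *Zic1* were higher in every dorsal-label library, beside 3.99%. The name is kept here as that of the atlas label and not as a position.

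The labels differed in caudal and in neural progenitor genes at both stages. The labels rest on expression, so these levels are a description with no test. *Cdx2* and *Cdx4*, which encode activators of caudal Hox genes, were found in 28.3% and 36.8% of spinal-label cells at E8.5 and in 24.9% and 28.3% at E9.5, against at most 0.931% of dorsal-label cells. At E8.5 the *Cdx2* level was 58.5 ± 9.48 CPM (SD, n = 4 libraries) in spinal-label cells against 1.38 CPM in dorsal-label cells, and that of *Cdx4* was 98.6 ± 21.1 CPM against 0.904 CPM. The summed level of the caudal and neuromesodermal list was 320 ± 89.6 CPM in spinal-label cells and 59.5 ± 16.3 CPM in dorsal-label cells at E8.5, and 237 ± 67.7 CPM against 29.9 ± 3.2 CPM at E9.5. Of 12 such genes with enough UMIs, 9 were higher in every spinal-label library than in any dorsal-label library at E8.5 and 7 at E9.5, beside 4.39% and 2.48% of all genes, and 0 were higher in the dorsal label. Of 13 neural progenitor genes, 5 at E8.5 and 6 at E9.5 were higher in every dorsal-label library, with *Fabp7*, *Msi1* and *Vim* at both stages, beside 3.99% and 2.31% of all genes, and 2 and 1 were higher in every spinal-label library. Their summed level was 1237 ± 113 CPM in spinal-label and 1475 ± 220 CPM in dorsal-label cells at E8.5 and 1685 ± 204 against 2653 ± 162 CPM at E9.5. Of 13 FGF genes, only *Fgfr3* was higher in every dorsal-label library at both stages, beside 3.99% and 2.31% of all genes. At each stage 5 were higher in every spinal-label library, beside 4.39% and 2.48%. *Dusp6*, *Etv4*, *Etv5* and *Spry1*, which are induced by FGF signalling, were among these at both stages. Of 10 retinoic acid genes at E8.5 and 12 at E9.5, 3 and 4 were higher in every dorsal-label library, beside 3.99% and 2.31%. *Crabp1*, which encodes a retinoic acid binding protein, was among these, at 159 CPM in the spinal and 941 CPM in the dorsal label at E8.5, and at 264 and 519 CPM at E9.5. The receptor gene *Rarg* was higher in every spinal-label library at both stages, the 1 member to be so, beside 4.39% and 2.48%.

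Hox transcripts summed to 1650 ± 140 CPM in spinal-label and 581 ± 151 CPM in dorsal-label cells at E8.5, and to 2351 ± 274 and 1517 ± 262 CPM at E9.5. *Hoxb9* was found in 87.2% of spinal-label and 16.8% of dorsal-label cells at E8.5, and in 68.8% and 53.6% at E9.5, against 0.722% and 10.4% of cardiomyocytes. *Hoxc9* was found in 40.2% and 0.730% at E8.5, the latter below the 1.44% of cardiomyocytes, and in 72.3% and 27.6% at E9.5, against 5.77%. *Hoxc10* went from 1.87% of spinal-label cells at E8.5, where cardiomyocytes held it in 1.08%, to 72.3% at E9.5, when 6.72% of dorsal-label cells and 1.92% of cardiomyocytes held it. In neuromesodermal progenitors *Hoxc10* was found in 27.6% of cells at E8.5 and 98.6% at E9.5. *Hoxb9* was found in 75.2% and 70.8% of them and *Hoxc9* in 80.7% and 87.5%.

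**Figure D2:**
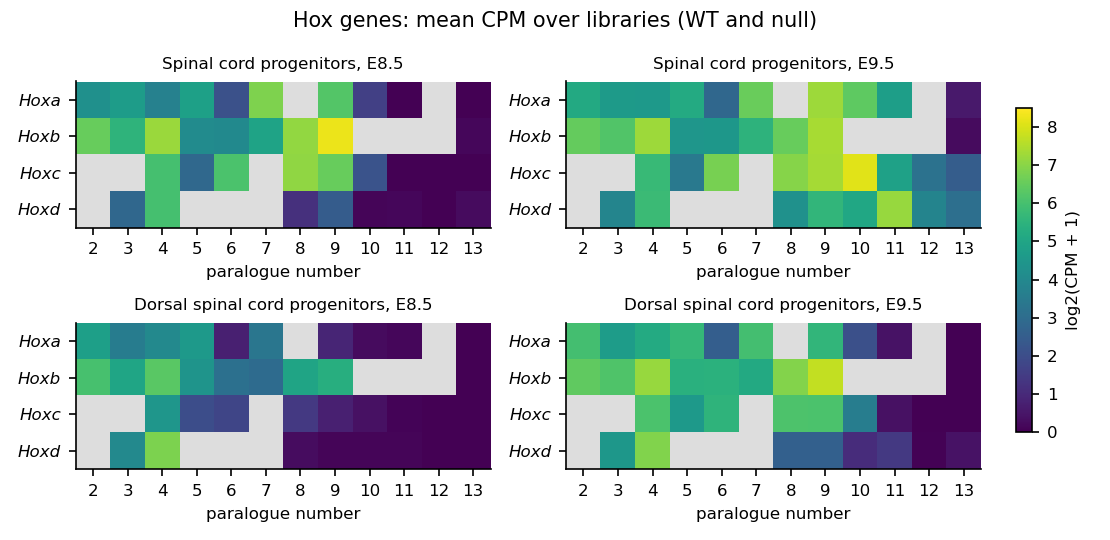
Mean level of each Hox gene, as log2(CPM + 1) over WT and null libraries, by cluster and paralogue number (the first paralogue group is not shown), in 4 panels for the spinal and dorsal label at E8.5 and E9.5, with grey where the mouse has no gene. Signal reaches higher paralogue numbers in the spinal label and at E9.5, where the summed level is 2351 CPM in the spinal and 1517 CPM in the dorsal label.

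Whether loss of *Stat3* changed how many cells took these labels was asked next, and neither label passed the test at either stage. The spinal label was given to 2.56% and 3.27% of cells in E8.5 WT A and B, and to 2.66% and 2.53% in E8.5 null A and B. At E9.5 it was given to 0.779%, 0.682%, 0.420% and 1.24% of cells in WT A to D and to 0.485%, 0.871%, 0.565% and 1.49% in null A to D. The spread within a genotype at E9.5 was wider than the distance between the genotype means, 0.780 ± 0.342% (SD, n = 4) in WT and 0.852 ± 0.455% in null. The log2 fold change of abundance, null over WT, was −0.17 (SE 0.28, edgeR, adjusted p = 0.984) at E8.5 and 0.04 (SE 0.48, edgeR, adjusted p = 0.997) at E9.5.

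The dorsal label was given to 4.17% and 3.42% of cells in E8.5 WT A and B and to 3.57% and 3.23% in null A and B. At E9.5 the shares were 7.18%, 7.12%, 2.84% and 2.38% in WT A to D and 3.88%, 6.10%, 2.51% and 3.56% in null A to D. Here the WT libraries alone spanned the null range. The log2 fold change was −0.15 (SE 0.23, edgeR, adjusted p = 0.984) at E8.5 and −0.36 (SE 0.34, edgeR, adjusted p = 0.965) at E9.5. Over all labels with enough cells, 0 of 68 (0%) were called at E8.5 and 1 of 71 (1.41%) at E9.5.

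**Figure D3:**
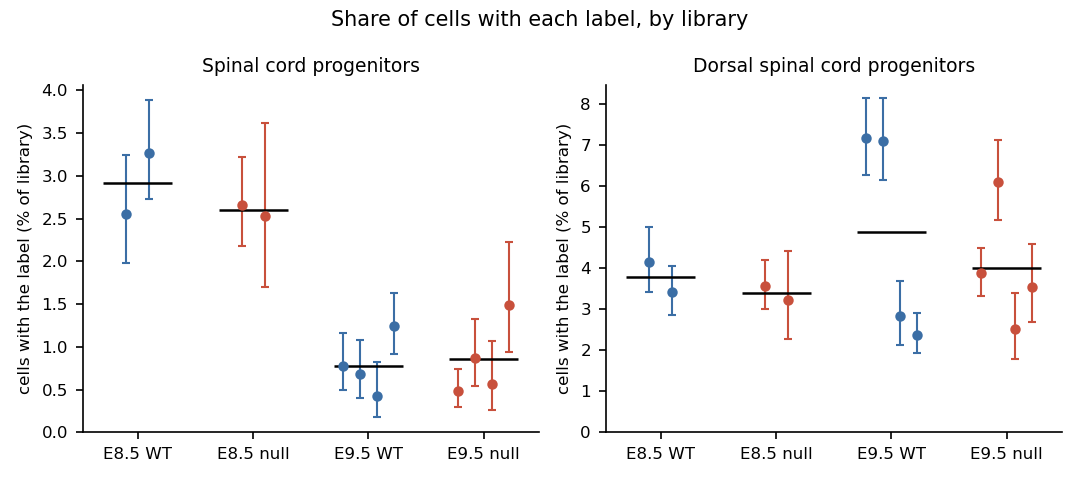
Percent of the cells of each library that took the spinal or the dorsal label, by stage, in WT (blue) and null (red) libraries, with exact 95% binomial intervals that cover counting error only and a black line at each group's mean. WT and null libraries overlap in the dorsal label at E9.5, where WT runs from 2.38% to 7.18% and null from 2.51% to 6.10%.

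The cells were also compared by the atlas age to which they mapped. Spinal-label cells mapped on average to day 8.76 ± 0.0288 (SD) in WT and 8.74 ± 0.0409 in null libraries at E8.5, and to day 8.81 ± 0.0245 and 8.87 ± 0.0427 at E9.5. At E9.5 the WT libraries ran from 8.79 to 8.83 and the null libraries from 8.83 to 8.92, so that no null library lay below a WT library, while at E8.5 the difference had the opposite sign. Over both stages the null minus WT difference was 0.0161 day (exact two-sided permutation within stage, p = 0.567, smallest possible p 0.0167). Dorsal-label cells mapped to day 8.84 ± 0.0808 and 8.83 ± 0.0626 at E8.5 and to day 9.01 ± 0.0461 and 9.01 ± 0.0740 at E9.5, a difference of −0.00867 day (exact permutation, p = 0.8, smallest possible p 0.00476). Null cells held more UMIs, by 7322 per cell over both stages in the spinal label (exact permutation, p = 0.183) and 6026 in the dorsal label (exact permutation, p = 0.129). In the spinal label at E9.5 library medians ran from 31522 to 36822 UMIs in WT and from 37703 to 58557 UMIs in null, without overlap. At E8.5 the null medians of 27792 and 28234 UMIs lay between the WT medians of 17635 and 32972. In the dorsal label at E9.5 they overlapped, at 25911.5 to 41164 UMIs in WT and 31874.5 to 46130.5 UMIs in null. The spinal difference was 11156 UMIs without E8.5 WT A (exact permutation, p = 0.0167), and the dorsal one was 9286 without E8.5 WT A (exact permutation, p = 0.0286) and 7722 without E9.5 WT C (exact permutation, p = 0.0476).

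*Stat3* itself (GRCm38 chr11:100885098-100939540, minus strand, GENCODE vM21) was low in these cells. In spinal-label cells it stood at 1.83 and 3.0 CPM in E8.5 WT A and B and at 0.635 and 0 CPM in the null libraries. At E9.5 it stood at 2.45, 0 and 3.36 CPM in WT A, B and D and at 0, 1.19 and 0 CPM in null A, B and D. WT and null overlapped at E9.5 and not at E8.5, and the null minus WT difference was −1.82 CPM (exact two-sided permutation, p = 0.0667), or p = 0.0167 without E9.5 WT B. In dorsal-label cells *Stat3* stood at 4.67 and 1.78 CPM in WT against 0.503 and 0.961 CPM in null libraries at E8.5. At E9.5 it stood at 3.62, 3.22, 1.39 and 2.22 CPM in WT A to D against 0.365, 1.40, 0 and 0.934 CPM in null A to D. The difference in dorsal-label cells was −2.22 CPM (exact two-sided permutation, p = 0.00952), or p = 0.0619 without E8.5 null A. Where the reads fell along the gene was not analysed here, so this level is no direct check of the deletion, and the gene was below the count filter of the fit across genes.

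No gene of the STAT3 pathway list was called in either label, beside 0.0447% and 0.0839% of all genes tested in the spinal label at E8.5 and E9.5 and 0.0758% and 0.162% in the dorsal label. At these shares the absence of a call does not set the list apart. Of 33 genes (receptors such as *Il6st*, kinases such as *Jak1*, targets and feedback inhibitors), 20 were tested in the spinal label at E8.5, 13 at E9.5, and 20 and 23 in the dorsal label. Their median log2 fold changes were 0.04, 0.15, −0.04 and −0.01 in that order, beside −0.01, 0.01, 0.00 and 0.00 over all genes tested. *Socs3* in dorsal-label cells at E9.5 ran from 6.80 to 8.52 CPM in WT and from 7.54 to 10.6 CPM in null libraries, a log2 fold change of 0.40 (edgeR, adjusted p = 0.768). Its promoter is printed because it holds the letters of a STAT element, TTCNNNGAA, which reads the same on both strands. The window is RefSeq's, on GRCm38.p6, minus strand, chr11:117969317-117969616, 250 bases before to 50 after the start, with the match in capitals.
Socs3: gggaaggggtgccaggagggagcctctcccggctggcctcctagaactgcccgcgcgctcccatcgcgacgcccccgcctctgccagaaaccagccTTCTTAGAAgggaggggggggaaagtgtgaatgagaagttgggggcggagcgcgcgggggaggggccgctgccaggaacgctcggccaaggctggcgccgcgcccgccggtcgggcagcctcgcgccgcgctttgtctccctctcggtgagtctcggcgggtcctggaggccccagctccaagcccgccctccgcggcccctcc

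Null and WT expression were then compared, with a gene called at an adjusted p under 0.05 and an absolute log2 fold change over 1. In spinal-label cells 4 of 8952 genes (0.0447%) were called at E8.5 and 6 of 7148 (0.0839%) at E9.5. In dorsal-label cells 7 of 9233 (0.0758%) were called at E8.5 and 16 of 9900 (0.162%) at E9.5. DESeq2 called 4, 4, 3 and 15 genes in the same order, and 386, 317, 318 and 656 genes had an unadjusted p under 0.05 in edgeR. The calls covered 23 distinct genes, of which 2 were called in all 4 comparisons, 4 in 2 and 17 in 1. The labels hold different cells of the same libraries, so the comparisons are not independent. At E8.5 leaving out E8.5 null B gave 25 calls in the spinal label, all 4 genes among them, and 27 in the dorsal label, with *Zdbf2* lost. Leaving out E8.5 null A gave 42 and 57 calls, and leaving out E8.5 WT A or WT B gave 7 and 8 in the spinal and 9 and 11 in the dorsal label. Each of these E8.5 fits has 1 library in one genotype, which is assumed to vary like the 2 of the other, so their counts are no measure of how stable the calls are. At E9.5 the range was 4 to 8 calls in the spinal label and 10 (without E9.5 null B) to 17 in the dorsal label.

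The gene called as raised in null cells in every comparison was *Zdbf2* (chr1:63273265-63314576, plus strand), an imprinted gene expressed from the paternal copy. In spinal-label cells it stood at 68.2 and 75.9 CPM in WT and at 160 and 129 CPM in null libraries at E8.5. At E9.5 it stood at 77.2, 92.6 and 71.6 CPM in WT A, B and D and at 170, 220 and 172 CPM in the null libraries. In dorsal-label cells at E8.5 it stood at 68.2 and 83.2 CPM in WT and 144 and 155 CPM in null. Every null library lay above every WT library. The dorsal label at E9.5 showed the same, with 60.8, 71.2, 97.5 and 78.9 CPM in WT A to D and 156, 147, 137 and 166 CPM in null A to D. The log2 fold changes were 1.07 (SE 0.14, edgeR, adjusted p = 0.00114) and 1.25 (SE 0.15, edgeR, adjusted p = 2.16e-05) in the spinal label and 1.01 (SE 0.14, edgeR, adjusted p = 0.00621) and 1.03 (SE 0.11, edgeR, adjusted p = 5.74e-05) in the dorsal label. They lay close to the fold limit. Leaving out E8.5 WT A or null A gave 0.98 and 0.91 in the spinal label, leaving out E8.5 WT A or null B gave 0.86 and 0.96 in the dorsal label, and leaving out E9.5 WT A or null D gave 0.91 and 0.998 there, each below the limit. Its upstream RefSeq start carries a TTCNNNGAA match, printed here in capitals on GRCm38.p6, plus strand, chr1:63200108-63200407. The window of its other start held none.
Zdbf2: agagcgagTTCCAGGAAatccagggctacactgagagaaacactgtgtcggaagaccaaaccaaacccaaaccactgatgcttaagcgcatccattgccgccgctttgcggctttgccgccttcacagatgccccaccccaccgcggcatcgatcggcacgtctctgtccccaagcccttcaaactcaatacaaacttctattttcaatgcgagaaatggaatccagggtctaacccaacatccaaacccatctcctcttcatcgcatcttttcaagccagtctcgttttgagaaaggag

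The letters TTCNNNGAA were found in the promoter windows of 2 of 19 called genes with a window (10.5%), 2 of 27 STAT3 pathway genes (7.41%, *Cish* and *Socs3*) and 9.55% of 27025 genes. The match is a string of letters and not a site at which binding was measured.

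The gene called as lowered in every comparison was *Hist1h4i* (chr13:22040636-22041362, minus strand), a histone H4 gene whose near-identical copies make its counting uncertain. In spinal-label cells it stood at 46.7 and 55.3 CPM in WT and 13 and 12.2 CPM in null libraries at E8.5, and at 53.9, 35.0 and 55.4 CPM against 11, 9.48 and 7.74 CPM at E9.5. In dorsal-label cells it stood at 53.9 and 47.2 CPM in WT and 17.6 and 15.4 CPM in null libraries at E8.5. At E9.5 it ran from 46.1 to 83.6 CPM in WT and from 12.6 to 15.5 CPM in null libraries. No null library reached the WT range. The log2 fold changes were −1.96 (SE 0.24, edgeR, adjusted p = 0.000685) and −2.42 (SE 0.28, edgeR, adjusted p = 1.65e-05) in the spinal and −1.55 (SE 0.21, edgeR, adjusted p = 0.00615) and −2.06 (SE 0.24, edgeR, adjusted p = 0.00568) in the dorsal label. The last call was lost without E9.5 null A, B or C, at log2 fold changes of −2.11, −2.03 and −2.07.

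*Grb10* (chr11:11930508-12038683, minus strand), an imprinted adaptor of growth factor receptors, was nearly silent in null cells at E9.5. In spinal-label cells it stood at 347, 428 and 386 CPM in WT A, B and D and at 2.19, 8.30 and 15.5 CPM in null A, B and D, with −5.37 as the log2 fold change (SE 0.27, edgeR, adjusted p = 5.21e-08). In dorsal-label cells it stood at 292, 301, 327 and 315 CPM in WT and 10.4, 16.1, 1.60 and 14 CPM in null libraries, with −4.69 as the log2 fold change (SE 0.27, edgeR, adjusted p = 0.000763). The groups lay far apart. At E8.5 the null libraries differed from each other, with 25.1 CPM in null A and 334 CPM in null B in the spinal label, against 426 and 348 CPM in WT A and B. In the dorsal label the null values were 24.7 and 226 CPM against 291 and 282 CPM in WT. The E8.5 log2 fold changes were −1.39 (SE 1.59) and −1.48 (SE 1.38) and were not called (edgeR, adjusted p = 0.999 in both).

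The level of *Grb10* in null libraries was also split by tdTomato. In E8.5 null A the 211 cells of both labels with a tdTomato UMI held 9.78 CPM of *Grb10* and the 28 cells without one 166 CPM. In E8.5 null B the 39 cells with tdTomato held 276.6 CPM and the 27 without 268.7 CPM, so that in this library *Grb10* was high in both. At E9.5 the cells without tdTomato were 5 in null A, at 125 CPM against 6.87 CPM in the cells with it, and 10 in null B, at 156 CPM against 8.78 CPM. There were also 1 in null C, with 0 UMIs of *Grb10* against 1.73 CPM, and 3 in null D, with 1 UMI (28.3 CPM) against 14.4 CPM, too few to compare. In E8.5 null A other called genes differed too. *Hist1h4i* stood at 12.6 CPM with tdTomato and 43.7 CPM without, and *Pusl1* at 5.28 and 14.6 CPM. *Impact* stood at 53.4 and 32.1 CPM, *Zdbf2* at 153.6 and 125.4 CPM and *Cwc22* at 102.3 and 119.6 CPM. All but *Cwc22* lay nearer to WT in the cells without tdTomato. In E8.5 null B *Hist1h4i* (13.3 and 15.01 CPM) and *Pusl1* (19.6 and 20.5 CPM) differed little. The cause was not tested.

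*Cwc22* and *Pusl1* were called at E9.5 in both labels. *Cwc22* (chr2:77881159-77946375, minus strand), which encodes a spliceosome-associated protein and has near-identical copies in the mouse, stood at 29.4, 42.0 and 38.0 CPM in WT A, B and D and at 180, 170 and 154 CPM in null A, B and D in spinal-label cells at E9.5. In dorsal-label cells it stood at 40.4, 37.4, 45.0 and 39.3 CPM in WT and 180, 162, 145 and 186 CPM in null libraries. The groups did not overlap, and the log2 fold changes were 2.19 (SE 0.16, edgeR, adjusted p = 5.55e-09) and 2.09 (SE 0.087, edgeR, adjusted p = 1.05e-14). At E8.5 it stood at 71.8 and 73.7 CPM in WT against 102 and 143 CPM in null spinal-label libraries, a log2 fold change of 0.72 that was not called (edgeR, adjusted p = 0.219). *Pusl1*, a pseudouridine synthase-like gene, stood at 19.6, 19.2 and 33.0 CPM in WT and 7.67, 9.48 and 5.16 CPM in null spinal-label libraries at E9.5 (log2 fold change −1.83, SE 0.36, edgeR, adjusted p = 0.0288). In dorsal-label libraries it stood at 15.5, 19.1, 21.4 and 24.1 CPM against 3.83, 8.77, 4.25 and 4.67 CPM (log2 fold change −1.72, SE 0.24, edgeR, adjusted p = 0.000502). At E8.5 its log2 fold changes were of about the same size, at −1.52 in the spinal and −1.66 in the dorsal label, and were not called (edgeR, adjusted p = 0.123 and 0.999). The spinal call of *Pusl1* was lost without E9.5 WT A (−1.98), WT D (−1.39), null A (−1.87) or null D (−1.61).

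*Impact*, an imprinted regulator of translation, stood at 20.8, 21.0 and 24.6 CPM in WT and 45.0, 72.3 and 47.3 CPM in null spinal-label libraries at E9.5 (log2 fold change 1.24, SE 0.23, edgeR, adjusted p = 0.0185), and its call was lost without E9.5 WT A (1.18), WT B (1.2), WT D (1.39) or null B (1.01). In dorsal-label cells at E9.5 its log2 fold change was 0.78 (edgeR, adjusted p = 0.000128), below the fold limit. *H19*, an imprinted non-coding RNA, stood at 60.4 and 69.0 CPM in WT and 18.1 and 8.57 CPM in null spinal-label libraries at E8.5 (log2 fold change −2.01, SE 0.23, edgeR, adjusted p = 0.000685). In dorsal-label cells at E9.5 it ran from 41.5 to 88.9 CPM in WT and from 1.60 to 14 CPM in null libraries, without overlap, yet it was not called (log2 fold change −4.02, edgeR, adjusted p = 0.0543). *Pde1c*, a phosphodiesterase gene, stood at 9.15 and 13.7 CPM in WT and 0.952 and 1.22 CPM in null spinal-label libraries at E8.5 (log2 fold change −3.40, SE 0.59, edgeR, adjusted p = 0.0374), and its call was lost without E8.5 WT B (−3.05) or null A (−3.08). In E8.5 null B *Impact* (31.8 and 27.9 CPM) and *Pusl1* (15.9 and 23.1 CPM) lay nearer to WT than in null A (56.2 and 47.6 CPM, and 6.98 and 5.54 CPM), while *Zdbf2*, *Hist1h4i* and *Stat3* lay with null A.

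**Figure D4:**
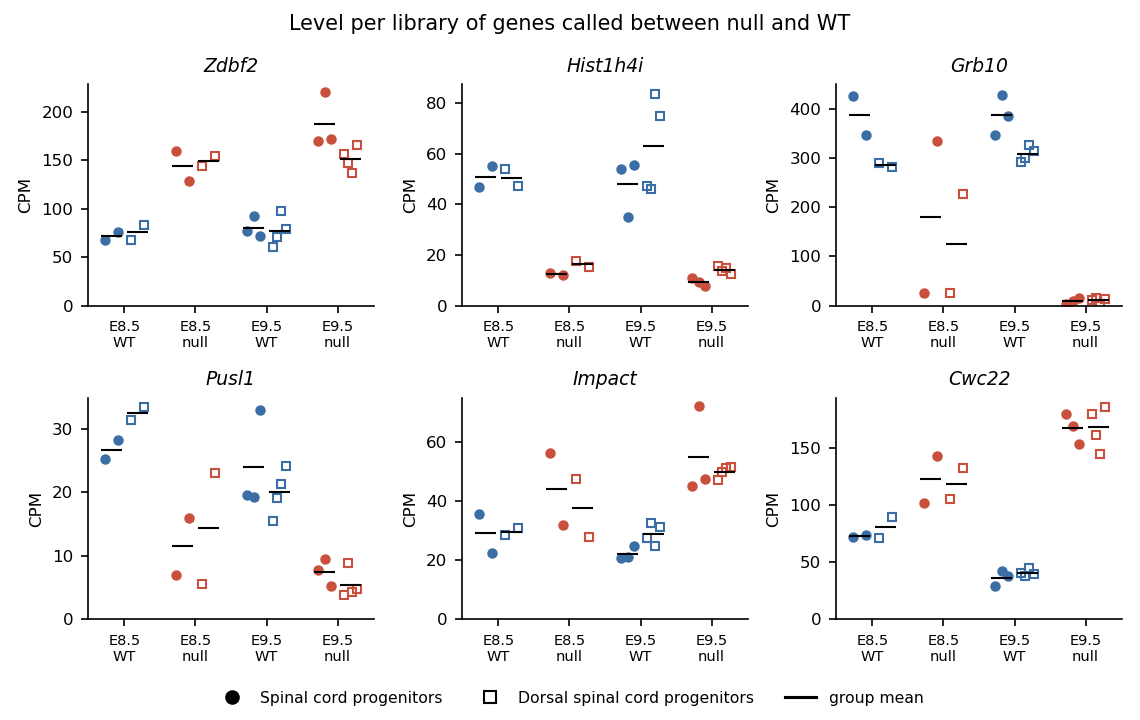
CPM per library of *Zdbf2*, *Hist1h4i*, *Grb10*, *Pusl1*, *Impact* and *Cwc22* by stage and genotype (blue WT, red null), with filled circles for the spinal and open squares for the dorsal label and a line at each mean. Null libraries lie apart from WT at E9.5 in each panel, while at E8.5 *Grb10* in the spinal label is at 25.1 CPM in null A and 334 CPM in null B.

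The remaining calls were made in the dorsal label alone, which does not show that they differ from the spinal label. *Akr1e1*, an aldo-keto reductase gene, was called at both stages. It stood at 19.6 and 25.4 CPM in WT and 5.03 and 6.73 CPM in null libraries at E8.5 (log2 fold change −1.99, SE 0.30, edgeR, adjusted p = 0.0138). At E9.5 it stood at 15.5, 14.9, 25.5 and 6.67 CPM in WT and 3.83, 2.98, 1.60 and 2.34 CPM in null libraries (log2 fold change −2.33, SE 0.35, edgeR, adjusted p = 0.00571). The E8.5 call was lost without E8.5 null A (−1.67) and the E9.5 call without E9.5 null B (−2.33). *Akr1b8*, of the same enzyme family, ran from 2.89 to 5.23 CPM in WT and from 0 to 0.913 CPM in null libraries at E9.5 (log2 fold change −3.32, SE 0.52, edgeR, adjusted p = 0.000885), and was not tested without E9.5 WT B. At E8.5 *Tulp3*, a ciliary transport gene, stood at 20.9 and 23.1 CPM in WT and 48.3 and 61.5 CPM in null libraries, and *Pop4*, an RNase P and MRP subunit gene, at 27.1 and 25.4 against 57.9 and 88.4 CPM, with log2 fold changes of 1.30 and 1.42 (edgeR, adjusted p = 0.0138 in both). The zinc finger genes *Zfp979* and *Zfp984*, which have near-identical copies, rose by 2.79 and 2.78 on the log2 scale from 2.18 CPM or less in WT (edgeR, adjusted p = 0.0402 in both). The *Zfp979* call was lost without E8.5 WT A (2.90), WT B (2.69) or null A (2.38), and that of *Zfp984* without WT B (2.39).

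At E9.5 *Atg2a*, an autophagy gene, stood at 5.21, 5.43, 5.11 and 5.19 CPM in WT and 20.8, 22.6, 6.38 and 17.8 CPM in null dorsal-label libraries (log2 fold change 1.81, SE 0.26, edgeR, adjusted p = 0.00232). *Fggy*, a carbohydrate kinase gene, rose by 2.33 on the log2 scale (SE 0.40, edgeR, adjusted p = 0.00295) and *Cisd3*, a mitochondrial iron-sulphur protein gene, by 1.04 (SE 0.19, edgeR, adjusted p = 0.00523). *Fam196b* had 75 UMIs in null and 3 in WT cells, a ratio of 27.5 in CPM (95% counting interval 9.06 to 136, edgeR, adjusted p = 1.17e-05), and it was below the count filter, and not tested, without E9.5 null B. *Zfp263* fell by 1.18 (SE 0.22, edgeR, adjusted p = 0.00568) and *Cldn34c1* by 1.58 (SE 0.36, edgeR, adjusted p = 0.0488). The call of *Cisd3* was lost without E9.5 WT A (1.00), WT B (0.92) or null D (1.00), that of *Zfp263* without null A (−1.06) or null B (−1.07), and that of *Cldn34c1* without any library but null C (−1.88 to −1.13). The libraries of *Msrb2* (log2 fold change −2.17, SE 0.40, edgeR, adjusted p = 0.0065) and *Slc38a4* (1.05, SE 0.22, edgeR, adjusted p = 0.0207) overlapped between the genotypes although both genes were called. *Msrb2* was not called without E9.5 WT A, WT B, null A or null B. *Slc38a4* was not called without E9.5 WT A, WT C, null A, null B or null D.

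Other settings of the fit also ended calls of the named genes without turning their direction. With both stages in 1 fit the spinal-label calls of *Grb10* (−5.38) and *Impact* (1.23) at E9.5 and *H19* (−2.01) at E8.5 were lost, *Pde1c* was below the count filter and not tested, and also lost were the dorsal-label calls of *Hist1h4i* (−1.55), *Akr1e1* (−1.996), *Tulp3* (1.30), *Pop4* (1.40) and *Zfp979* (2.82) at E8.5 and *Pusl1* (−1.71) at E9.5. With DESeq2 the lost calls were *Pde1c* (−3.44) at E8.5 and *Pusl1* (−1.77) and *Impact* (1.27) at E9.5 in the spinal label, and *Tulp3* (1.33), *Akr1e1* (−1.97), *Zfp979* (2.77) and *Zfp984* (2.90) at E8.5 and *Cldn34c1* (−1.57) and *Slc38a4* (1.03) at E9.5 in the dorsal label. In the dorsal label leaving out null cells without a tdTomato UMI ended the calls of *Zdbf2* at E8.5 (0.99) and *Atg2a* (1.70) and *Cldn34c1* (−1.63) at E9.5, keeping WT cells with such a UMI ended those of *Zdbf2* at E8.5 (0.99) and *Cisd3* at E9.5 (0.97), and a minimum of more than 50 cells ended that of *Hist1h4i* at E9.5 (−2.07). For the spinal label at E8.5 no fit was made with null cells lacking tdTomato left out. E8.5 null B, with a tdTomato UMI in 48.3% of its 29 spinal-label cells, then fell below the cell minimum. The spinal-label calls at E8.5 were therefore not put to that setting. A minimum of more than 50 cells was fitted only for the dorsal label at E9.5.

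**Figure D5:**
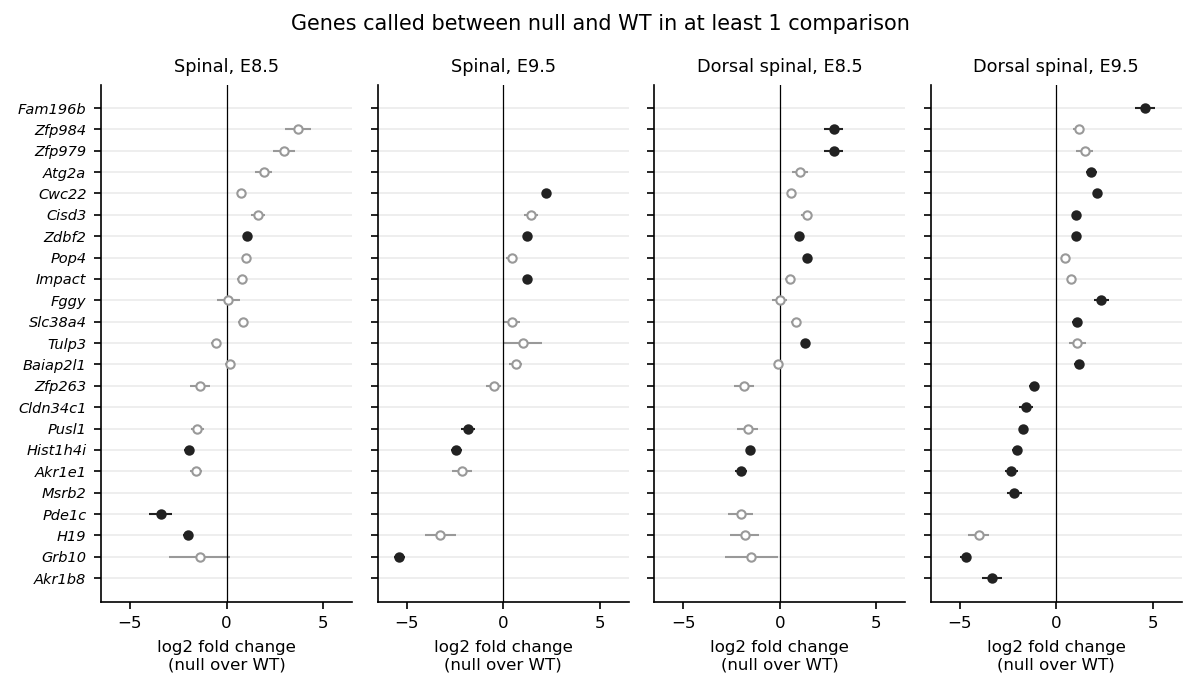
Log2 fold change, null over WT, with its SE as a bar, of the 23 called genes in the spinal and dorsal label at E8.5 and E9.5, with filled points for calls, open grey points for genes tested and not called, and no point where a gene was not tested. *Zdbf2*, at 1.01 to 1.25, and *Hist1h4i*, at −2.42 to −1.55, are called in all 4 comparisons.

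The gene lists were then read for the null against WT comparisons. Of the genes on all lists, 291 and 257 were tested in the spinal label at E8.5 and E9.5 and 276 and 309 in the dorsal label, and 2, 3, 1 and 2 of them were called, each one a member of the imprinted list. That list was tested for 20, 19, 20 and 19 of its 22 genes, beside called shares of 0.0447%, 0.0839%, 0.0758% and 0.162% over all genes. The lists were chosen with earlier results of these data known. Imprinted genes, which the study left out of its tests, were kept here. The neural progenitor, dorsal, ventral, neurogenesis, caudal, Hox, Notch, Hedgehog, Wnt and BMP, retinoic acid, FGF, S phase, G2 and M phase and p53 lists had 0 called in any comparison, beside the shares of 0.0447% to 0.162% over all genes, so that the absence of a call does not set these lists apart. Some lists leaned to one side without a call, and they are given after their values were seen, with no test. In the dorsal label at E8.5 all 9 tested genes of the intermediate and ventral list lay below 0 (median log2 fold change −0.25). That list summed to 213.4 and 398.3 CPM in the null libraries, against 366.6 and 424.8 CPM in WT, so only the lower null library lay outside the WT range. At E9.5 21 of 27 Hox genes (median −0.09) and 18 of 23 Wnt and BMP genes (median −0.10) lay below 0 in this label. The medians over all genes were −0.0020 and −0.0015 at E8.5 and E9.5. In the spinal label 9 of 10 retinoic acid genes (median −0.03) and 14 of 19 Wnt and BMP genes (median −0.16) lay below 0 at E8.5. At E9.5 so did 28 of 39 S phase genes (median −0.07). The S phase list did not lean down in the other comparisons. Above 0 were 20 of 39 of its genes in the spinal label at E8.5 (median 0.01). In the dorsal label 25 of 39 at E8.5 and 27 of 39 at E9.5 were above 0 (medians 0.04 and 0.02). Above 0 lay 8 of 10 dorsal-domain genes in the spinal label at E8.5 (median 0.12). The p53 list leaned up throughout, with 6 of 9 and 6 of 6 genes above 0 in the spinal label at E8.5 and E9.5. In the dorsal label it was 6 of 8 and 7 of 9. *Sox2* in spinal-label cells at E9.5 stood at 343, 406 and 315 CPM in WT and 288, 250 and 298 CPM in null libraries, a log2 fold change of −0.33 (edgeR, adjusted p = 0.960). In the dorsal label at E9.5 the *Sox2* level ran from 399 to 468 CPM in WT and from 408 to 470 CPM in null libraries, with a log2 fold change of 0.02. The log2 fold changes of *Pax3* were 0.04 and −0.16 in the spinal label and 0.05 and 0.03 in the dorsal label, and those of *Pax6* −0.28 and 0.03 and 0.02 and −0.02, at E8.5 and E9.5. Neural crest markers in spinal-label cells at E9.5 summed to 41.66 to 81.79 CPM in null and 12.24 to 58.72 CPM in WT libraries.

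The null effect was compared between labels at E9.5 within the same libraries. The effect in spinal-label minus that in dorsal-label cells was called for 0 of 9370 genes (0%) by edgeR, with 399 at an unadjusted p under 0.05 and a smallest adjusted p of 0.163. Hindbrain neural progenitors, an atlas label, held trunk Hox genes at E9.5 at about the level of dorsal-label cells, with *Hoxb9* in 55.7% and *Hoxc9* in 32.5% of cells and a summed Hox level of 1402 ± 292 CPM. Against this label the null effect was called for 0 of 8464 genes (0%) in the spinal label, with 445 at an unadjusted p under 0.05 and a smallest adjusted p of 0.0752. In the dorsal label it was called for 0 of 9397 genes (0%), with 486 at an unadjusted p under 0.05 and a smallest adjusted p of 0.122. DESeq2 called 1 gene in the last of these. For *Grb10* the spinal minus dorsal difference was −0.97 (SE 0.29, edgeR, adjusted p = 0.936) and for *Cwc22* 0.03 (SE 0.19) on the log2 scale.

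Far more genes moved with stage than with genotype. In spinal-label cells 131 of 8236 genes (1.59%) were called between E8.5 and E9.5 in WT, 103 of them higher at E9.5, and 116 (1.41%) in null cells, 97 of them higher. Of these, 57 were called in both genotypes, which is 43.5% of the WT and 49.1% of the null calls, and all 57 had the same direction. Stage and library cannot be told apart in this design. The WT count was 82, 37 and 72 when E8.5 WT A, E8.5 WT B or E9.5 WT A was left out, and the null count 48 or 75 when E8.5 null B or E9.5 null A was.

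Of 35 tested Hox genes, 5 rose in spinal-label cells of both genotypes, beside 1.59% of all genes called in WT and 1.41% in null cells. *Hoxc10* went from 2.06 ± 2.91 CPM (SD, n = 2) to 266 ± 43.7 CPM (n = 3) in WT, on the log2 scale 6.88 (SE 0.67, edgeR, adjusted p = 0.0036), and from 4.92 ± 6.96 to 289 ± 64.9 CPM in null cells (5.09, SE 0.57, edgeR, adjusted p = 0.00679). *Hoxa10* went from 1.79 to 77.3 CPM in WT and from 2.38 to 87.4 CPM in null cells, *Hoxd9* from 4.99 to 47.8 and from 4.24 to 47.7 CPM, and *Hoxd8* from 1.14 to 20.1 and from 1.43 to 17.4 CPM. *Hoxd10* had 0 UMIs in WT at E8.5 and 90 at E9.5, at least 42.7-fold higher against a floor of 3 counts over the group. In null cells *Hoxd13* (1 UMI at E8.5, 29 at E9.5) was also called, a call lost with DESeq2 (5.07) and, at 4.56 to 6.64, without any E8.5 library, E9.5 WT B or E9.5 null B, and *Hoxb9* fell by 1.08 (edgeR, adjusted p = 0.00353). The WT value of *Hoxb9* was −0.97 (edgeR, adjusted p = 0.00589), so the difference in calls lies at the thresholds, and the null call was lost without E8.5 null A (−0.80). The WT call of *Hoxa10* was lost without E8.5 WT A (5.60), E8.5 WT B (4.83), E9.5 WT B (5.16) or E9.5 null B (5.17), and the null call without E8.5 WT A, E8.5 WT B or E9.5 WT B (4.36 each), E8.5 null A (9.70), E8.5 null B (4.01), E9.5 null A (4.15) or E9.5 null B (4.27).

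Of 16 genes of the neurogenesis list tested in spinal-label cells, 3 rose in WT and 4 in null cells and 0 fell, beside the same shares of 1.59% and 1.41%, with *Hes6* and *Elavl3* called in both. With DESeq2 the null calls of *Elavl3* (2.01), *Btg2* (1.35) and *Neurog3* (3.49) were lost, which left *Hes6* of the 4. *Hes6*, which promotes neurogenesis, went from 29.3 ± 1.97 to 70.3 ± 13.9 CPM in WT (log2 fold change 1.13, SE 0.23, edgeR, adjusted p = 0.00502) and from 24.6 ± 8.78 to 72.7 ± 24.9 CPM in null cells (1.25, SE 0.24, edgeR, adjusted p = 0.00337). *Elavl3*, a neuronal RNA-binding protein gene, rose by 2.77 and 2.03 on the log2 scale (edgeR, adjusted p = 0.0162 and 0.0338). *Socs2*, a feedback inhibitor of cytokine receptors from the STAT3 pathway list, rose by 1.14 in WT (24.5 to 61.3 CPM, edgeR, adjusted p = 0.00149) and 1.05 in null cells (20.2 to 50.7 CPM, edgeR, adjusted p = 0.00736). *Cdx4* went from 89.3 to 55.0 CPM in WT and from 108 to 55.2 CPM in null cells, and only the null change of −1.08 passed the fold limit (edgeR, adjusted p = 0.0112), against −0.90 in WT. Outside the lists, *Ifitm1*, a membrane protein gene of early mesoderm and germ cells, fell by 2.35 in WT (365 to 79.1 CPM, edgeR, adjusted p = 0.0284) and 3.16 in null cells (398 to 47.8 CPM, edgeR, adjusted p = 0.0141). Without 1 library at a time the WT call was lost for *Hes6* without E8.5 WT B (1.07) or E9.5 WT A (0.98), for *Elavl3* without E8.5 WT A (2.09) or E9.5 WT A (2.24), and for *Ifitm1* without any of the WT libraries (−2.52 to −2.18). The null call was lost for *Hes6* without E9.5 null A (0.96), for *Elavl3* without E8.5 null A (1.63), E8.5 null B (2.18) or E9.5 null A (1.67), for *Socs2* without E8.5 null B (0.91) or E9.5 null B (0.96), for *Cdx4* without E8.5 null B (−0.89) or E9.5 null D (−0.93) and for *Ifitm1* without E9.5 null A (−2.92).

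In dorsal-label cells 454 of 10060 genes (4.51%) were called with stage in WT, 272 of them higher at E9.5, and 375 (3.73%) in null cells, 247 of them higher. Both genotypes shared 251 calls, 55.3% of the WT and 66.9% of the null calls, all in the same direction. The WT count was 233 without E8.5 WT B and the null count 232 without E8.5 null B. Of 28 tested Hox genes, 15 rose in WT and 12 in null cells. Most of the risers carried lower paralogue numbers than those of the spinal label. *Hoxc9* went from 0.690 to 68.3 ± 35.0 CPM in WT (log2 fold change 6.36, edgeR, adjusted p = 0.0126), *Hoxc8* from 1.40 to 71.7 ± 29.7 CPM (5.30, edgeR, adjusted p = 0.0069), *Hoxc6* from 2.51 to 44.8 ± 20.9 CPM (4.05, edgeR, adjusted p = 0.00954) and *Hoxb8* from 31.7 to 127 ± 14.3 CPM (1.83, edgeR, adjusted p = 0.0159). In null cells the log2 fold changes of *Hoxc9*, *Hoxc8*, *Hoxc6* and *Hoxb8* were 5.88, 4.35, 3.47 and 1.49, all called. The WT calls of *Hoxc9*, *Hoxc8*, *Hoxc6* and *Hoxb8* were lost without E8.5 WT A (7.04, 11, 4.25 and 2.18) or E8.5 WT B (6.02, 4.54, 3.92 and 1.60). The null calls of *Hoxc9*, *Hoxc8* and *Hoxc6* were lost without E8.5 null A (10.9, 10.9 and 10.3) or E8.5 null B (5.55, 4.00 and 3.12), and that of *Hoxb8* without E8.5 null B (1.09) and, at 1.32 to 1.52, without any of the other libraries but E8.5 null A and E9.5 null D. *Hoxc10*, which rose in the spinal label, stood at 10.5 ± 9.61 CPM in WT dorsal-label cells at E9.5 and was not called (edgeR, adjusted p = 0.343).

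Dorsal patterning genes were then examined in the dorsal label. Of 16 tested, 6 rose and 1 fell in WT and 5 rose and 1 fell in null cells, and of the 10 tested in the spinal label 0 were called in either genotype. Over all genes the called shares were 4.51% in WT and 3.73% in null cells in the dorsal label and 1.59% and 1.41% in the spinal label, so that 0 of 10 in the spinal label does not set the list apart there. With DESeq2 the dorsal-label calls of *Gsx2* and *Wnt3* were lost in both genotypes, that of *Msx2* (1.82) in WT and that of *Pax3* (0.96) in null cells. *Pax3* went from 70.6 ± 9.84 to 160 ± 34.6 CPM in WT (log2 fold change 1.03, SE 0.27, edgeR, adjusted p = 0.0338) and from 74.5 ± 12.9 to 161 ± 34.8 CPM in null cells (1.03, SE 0.29, edgeR, adjusted p = 0.0497). *Pax7* went from 1.22 to 22.6 ± 8.04 CPM in WT (4.05, edgeR, adjusted p = 0.00277) and from 3.05 to 26.3 ± 8.46 CPM in null cells (3.19, edgeR, adjusted p = 0.00674). *Lmx1a*, of the roof plate, was the member that fell, by 4.33 in WT and 2.31 in null cells, and the null call was lost, at −2.92 to −1.82, without any library but E9.5 WT D and E9.5 null A. The WT call of *Pax3* was lost without E8.5 WT A (1.19), E8.5 WT B (0.91), E9.5 WT A (0.87), E9.5 WT B (1.05) or E9.5 null C (1.04), and its null call, at 0.80 to 1.16, without all libraries but E9.5 WT A and E9.5 null D. The null call of *Pax7* was lost without E8.5 null A (2.64).

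Of 13 tested genes of the neural progenitor list, the same 3 rose in both genotypes and 0 fell, beside shares of 4.51% and 3.73% over all genes. *Vim*, an intermediate filament gene of radial progenitors, went from 214 ± 81.8 to 934 ± 133 CPM in WT and from 213 ± 100 to 934 ± 76.8 CPM in null cells (log2 fold changes 1.96 and 1.88, edgeR, adjusted p = 0.0029 and 0.0048). *Fabp7*, a fatty acid binding protein gene of the same cells, rose by 2.41 and 2.27 and *Sox9* by 1.46 and 1.12, all called. The calls of *Fabp7* were lost without E8.5 WT A (2.29) in WT and without E8.5 null A (1.86) in null cells, and the null call of *Sox9* without E8.5 null A (0.95) or E9.5 null A (0.98). *Sox2* rose by 0.40 in WT (299 to 440 CPM, edgeR, adjusted p = 0.000874) and *Pax6* fell by 0.50 (234 to 183 CPM, edgeR, adjusted p = 0.000512), both under the fold limit. The Notch target *Nrarp* went from 16.1 to 65.7 CPM in WT (1.82, edgeR, adjusted p = 6.21e-08) and from 15.5 to 65.1 CPM in null cells (1.71, edgeR, adjusted p = 5.47e-07). *Fgfr3*, an FGF receptor gene, rose by 1.70 and 1.39, while the ligand gene *Fgf15* fell by 1.28 and 1.09, all called. The null call of *Fgf15* was lost without E8.5 null B (−0.93) or E9.5 null C (−0.98). The neurogenesis list moved both ways in this label. Of 22 genes tested, 5 rose and 2 fell in WT and 6 rose and 2 fell in null cells. Over all genes the called shares were 4.51% and 3.73%. *Stmn2* and *Lhx1* were the members that fell, in both genotypes.

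Of the 4 caudal genes tested in the dorsal label, 2 fell in WT and 3 in null cells, and of 10 tested retinoic acid genes 2 fell in WT and 1 in null cells, beside 4.51% and 3.73% of all genes called. *Nkx1-2* fell by 3.21 in WT (6.92 to 0.691 CPM, edgeR, adjusted p = 0.00209) and 3.33 in null cells (11.7 to 1.04 CPM, edgeR, adjusted p = 0.00225). The WT call of *Nkx1-2* was lost without E8.5 WT B (−2.51) and the null call without E8.5 null B (−1.93). *Cdx1* fell by 3.31 and 3.29. *Aldh1a2*, which makes retinoic acid, fell by 1.72 in WT (70.8 to 21.8 CPM, edgeR, adjusted p = 0.0108) and 2.26 in null cells (80.9 to 17.1 CPM, edgeR, adjusted p = 0.00468), with the calls of *Aldh1a2* lost without E8.5 WT B (−1.40) in WT and without E8.5 null A (−2.38) in null cells. *Crabp1* went from 920 to 492 CPM in WT and from 962 to 547 CPM in null cells, and only the WT change of −1.05 passed the fold limit, a call lost without E8.5 WT B (−0.95) or E9.5 WT C (−0.98). *Nr6a1*, a nuclear receptor gene of the trunk, fell by 2.37 in WT (127 to 28.6 CPM, edgeR, adjusted p = 0.000316) and 2.12 in null cells (114 to 28.0 CPM, edgeR, adjusted p = 0.00124). The imprinted growth regulators *Cdkn1c* and *Plagl1* rose by 1.35 and 2.21 in WT and 1.49 and 2.13 in null cells. *Grb10* was called as falling in null cells (−3.19, edgeR, adjusted p = 0.0476), a value that rests on E8.5 null B and was −1.23 without it, and the call was also lost, at −3.51 to −2.99, without any of the other libraries but E8.5 null A. No S phase, G2 and M phase or p53 gene was called with stage in either genotype of this label.

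The change with stage differed between the genotypes for 1 gene, the same in both labels. *Cwc22* fell from E8.5 to E9.5 in WT cells, by 1.10 on the log2 scale in the spinal label (72.8 to 36.5 CPM, SE 0.19, edgeR, adjusted p = 0.000719) and by 1.14 in the dorsal label (80.5 to 40.5 CPM, SE 0.12, edgeR, adjusted p = 2.4e-07). In null cells it went from 123 to 168 CPM in the spinal label (0.35, edgeR, adjusted p = 0.262) and from 119 to 168 CPM in the dorsal label (0.38, edgeR, adjusted p = 0.0284). The interaction for *Cwc22*, null minus WT, was 1.45 in the spinal label (edgeR, adjusted p = 0.0134) and 1.53 in the dorsal label (edgeR, adjusted p = 1.15e-05), and it was the only call among 8236 (0.0121%) and 10060 genes (0.00994%). In edgeR 257 and 270 genes had an unadjusted p under 0.05 for this interaction. In the spinal label 0 genes were called for it by DESeq2 and by edgeR without E8.5 WT A, E8.5 WT B or E9.5 WT A, and 2 without E8.5 null B or E9.5 null B. In the dorsal label 1 gene was called by DESeq2, and 2 by edgeR without E8.5 WT B.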

How the data were processed

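Whole mouse chimeras were dissociated, sorted by tdTomato and profiled with droplet 3′ single-cell RNA sequencing. The authors deposited raw UMI counts per gene and cell, made with Cell Ranger on mm10 (submitters' processing notes), after filters on reads, genes and mitochondrial and ribosomal share. The deposited cell table gives UMI counts, the percent of mitochondrial UMIs, doublet calls, a transferred atlas label from the 25 nearest atlas cells and the fraction of those cells that carry it. Library names match no sample title, so groups came from the table's stage and sort columns.

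WT-sorted cells with a tdTomato UMI (28 of these labels) were left out. A further 8178 of 29453 genes were left out, namely predicted, ribosomal protein, mitochondrial, Y-linked, haemoglobin, Xist, Tsix and tdTomato. Counts were summed per library and label and tested with edgeR 4.0.16 (filterByExpr, TMM, robust quasi-likelihood, R 4.3.3), with p-values adjusted by Benjamini-Hochberg over all genes tested. Abundance was tested the same way on cells per label. Per-cell measures were tested by exact permutation of libraries within stage. The study's pool term could not be fitted, since libraries carry no pool. Alternatives were DESeq2 1.42.0, no count filter, no fold limit, other cell minimums, other handling of tdTomato, both stages in 1 fit, and leaving out each library. The scripts were tested on simulated counts.

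Named genes were *Stat3*, *Sox2*, *Pax3* and *Pax6*, up to 10 called genes per direction whose libraries did not overlap, called members of 22 gene lists and the 4 highest members of each, and a choice of these is printed. *Msrb2* and *Slc38a4* were named after their values were seen. The cells, lists and tests were chosen with earlier results of these data known. Shares carry exact 95% binomial intervals. A few genes are not reported here.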

Additional observations from a re-analysis of the deposited data

Results flagged for a closer look

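In 50 values with 4 libraries in a group, 4 had a library far from the other 3. Chance flags about 1 in 20 such groups, a rough guide here because most of the genes had been chosen as called. Only E9.5 was searched and, apart from the shares of cells, only the dorsal label. The place of the flags was therefore largely set by that choice. All 4 were in dorsal-label cells at E9.5. The median mitochondrial share of UMIs was 1.26% in null B against 0.995% to 1.04% in the other null libraries. *Pusl1* stood at 8.77 CPM in the same library against 3.83 to 4.67 CPM in the others. *Pax6* stood at 152 CPM in null C against 186 to 188 CPM in the other null libraries. *Cldn34c1* stood at 10.2 CPM in WT C against 5.18 to 6.04 CPM in the other WT libraries, and its call was lost without that library (log2 fold change −1.40).

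The change of *Cwc22* from E8.5 to E9.5 differed between the genotypes by the interaction test, by 1.45 on the log2 scale in spinal-label cells (edgeR, adjusted p = 0.0134) and by 1.53 in dorsal-label cells (edgeR, adjusted p = 1.15e-05), null minus WT.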

How the results depend on the processing

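No paired analysis was possible because library names carry no pool or replicate number. The E8.5 comparisons have 2 libraries per genotype, so that leaving 1 out leaves a lone library assumed to vary like the others, and the methods describe 2 embryos at E9.5 where the labels give pools of 1 embryo, so how many independent embryos stand behind the E9.5 libraries is unclear. There were 3645 values of single genes over the alternatives. Of these, 3034 kept their direction and side of the threshold, 582 lost a call, 1 gained one and 28 turned direction. All 28 were of *Sox2*, *Pax3* or *Pax6*, whose log2 fold changes in the main fits ran from −0.28 to 0.08 where they turned. The values were of called genes and of *Stat3*, *Sox2*, *Pax3* and *Pax6*, so few others could turn direction or gain a call. A gene below the count filter in an alternative was not counted. The cause of the changes below was not tested.

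Without the count filter the null against WT calls were 18 and 19 in the spinal label at E8.5 and E9.5 and 20 and 45 in the dorsal label, the spinal stage calls 237 in WT and 194 in null cells, and the stage interaction calls 7 in the spinal and 11 in the dorsal label. The dorsal label had 3 calls at E8.5 with DESeq2 and 4 with both stages in 1 fit, and 47 at E9.5 with no fold limit. DESeq2 called 0 genes for the spinal stage interaction and 1 for the dorsal minus hindbrain difference. The spinal abundance change at E9.5 was −0.00488 with null cells lacking tdTomato left out and −0.0160 with no minimum of cells per type, and the difference in mapped stage of spinal-label cells was 0 with the median in place of the mean. In the dorsal label *Sox2* and *Pax6* at E8.5 were 0.0198 and −0.0134 with null cells lacking tdTomato left out, and at E9.5 −0.00869 and 0.0416 with more than 50 cells per library.

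Leaving out 1 library at a time gave 7 to 42 calls in the spinal label at E8.5, 4 to 8 at E9.5, 9 to 57 in the dorsal label at E8.5 and 10 to 17 at E9.5. Stage calls ran from 37 to 157 in WT and 48 to 132 in null spinal-label cells, and from 233 to 510 and 232 to 373 in dorsal-label cells. The stage interaction had 0 to 2 calls in the spinal and 1 to 2 in the dorsal label, and the differences between labels had 0 to 5 (spinal minus dorsal), 0 to 7 (spinal minus hindbrain) and 0 to 3 (dorsal minus hindbrain). Log2 abundance changes ran from −0.319 to 0.103 and −0.216 to 0.00431 at E8.5 in the spinal and dorsal label, and from −0.314 to 0.258 at E9.5 in the spinal label. UMIs per cell ran from 3488 to 11156 and 2765 to 9286 in the spinal and dorsal label, and in the dorsal label mapped stage from −0.0372 to 0.0199 day and mitochondrial percent from −0.0775 to 0.0125. For the marker genes at E8.5 the spinal-label ranges were −0.0740 to 0.209 for *Sox2*, −0.201 to 0.171 for *Pax3* and −0.499 to 0.0300 for *Pax6*, and the dorsal-label ranges −0.0866 to 0.0425, −0.0989 to 0.269 and −0.213 to 0.172. At E9.5 the spinal-label ranges were −0.374 to 0.0338 for *Pax3* and −0.196 to 0.207 for *Pax6*, and the dorsal-label ranges −0.0201 to 0.0544 for *Sox2*, −0.0623 to 0.196 for *Pax3* and −0.0525 to 0.0416 for *Pax6*. The WT stage change of *Pax3* in the spinal label ran from −0.296 to 0.0793.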

Other observations

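Cells labelled Hindbrain neural progenitors in the E9.5 libraries, which held trunk Hox genes at about the level of dorsal-label cells, had 6 of 8533 genes called between null and WT by edgeR, and 4 of these were also called in dorsal-label cells at E9.5. The genes were *Dph7*, *Cwc22*, *Pusl1*, *Pxylp1*, *Grb10* and *Hist1h4i*. The log2 fold change of *Cwc22* there was 1.88 (SE 0.12, edgeR, adjusted p = 4.46e-12) and that of *Zdbf2* was 0.96 (SE 0.12, edgeR, adjusted p = 1.66e-05), just under the fold limit. The cells come from the same libraries as the spinal cord labels.

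In dorsal-label cells the WT change with stage included 7 of 24 tested Wnt and BMP genes, all higher at E9.5, beside 4.51% of all genes called. *Wnt4* went from 16.1 ± 3.24 to 59.5 ± 7.05 CPM in WT (log2 fold change 1.73, SE 0.42, edgeR, adjusted p = 0.0251) and from 11.3 ± 6.45 to 59.0 ± 23.5 CPM in null cells (2.05, SE 0.46, edgeR, adjusted p = 0.0215). Its WT call was lost without E8.5 WT A (1.97), E8.5 WT B (1.56) or E9.5 WT A (1.64), and its null call without E8.5 null A (3.06) or E8.5 null B (1.83). *Smad7*, an inhibitor of TGF-beta and BMP signalling, went from 6.58 to 24.9 CPM in WT (1.69, edgeR, adjusted p = 1.93e-05) and from 5.09 to 20.7 CPM in null cells (1.51, edgeR, adjusted p = 0.000353). In spinal-label cells *Smad7* rose in null cells, from 8.91 to 42.0 CPM (1.95, edgeR, adjusted p = 0.000471), and went from 15.2 to 30.2 CPM in WT without a call (0.87, edgeR, adjusted p = 0.095), and the difference between the genotypes was 1.08 and was not called.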
